A study of Homo sapiens with 36 samples.

Results

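S100 proteins were followed through the transcripts of 8 genes of the S100A family, S100A2, S100A3, S100A4, S100A6, S100A10, S100A11, S100A13 and S100A16, each taken with all of its annotated probe sets. They make up 8 of the 19775 named genes and 11 of the 54593 probe sets of the human HG-U133 Plus 2.0 array. RNA of pseudopods (PS, the protrusions that cells push through a porous filter) was set against RNA of the cell bodies (CB) that stay on top of it, in 6 human cancer cell lines, with 3 PS and 3 CB arrays for each. Glioblastoma was the source of U87 and U251 and fibrosarcoma that of HT1080, and these were kept in DMEM. DU145 is a prostate carcinoma line, MDA231 a breast carcinoma line and MDA435 a line of disputed origin with melanocytic gene expression, and these were kept in RPMI-1640. All 12 groups spent 24 h on the filters without further treatment, and 100 ng of total RNA per array was amplified in 2 labelling cycles. The labels do not say whether the 3 arrays of a group came from separate cultures, so p-values measure only the spread between these arrays.

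S100 proteins are small calcium-binding proteins that mostly work as dimers. In most of these proteins, though not in all, calcium binding to the EF-hand loops opens a surface that grips partner proteins. Annexins, cytoskeletal proteins and enzymes are among the partners. Several of them are known from work on cell motility, membrane repair and metastasis, and most of their human genes lie in a cluster on chromosome 1.

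All 8 genes lie on chromosome 1 in the RefSeq annotation of GRCh38.p14. S100A10 and S100A11 are next to each other, with 0 protein-coding genes between them. S100A4, S100A3, S100A2 and S100A16 also follow each other with 0 protein-coding genes between neighbours, while 52 lie between S100A11 and S100A6. RefSeq promoter windows, which run from 250 bases before the transcription start to 50 after it, were matched for all 8 genes, with 12 windows in all. Windows of 4 genes are shown, those of S100A11, S100A6 and S100A10, which rose in pseudopods, and that of S100A4, which did not pass the test. Capitals mark matches to GGGCGG (the GC box), CACCTG (an E-box of the type that ZEB repressors bind) and TATAAA (the TATA box), on either strand.
S100A11, chr1:152036955-152037254, minus strand: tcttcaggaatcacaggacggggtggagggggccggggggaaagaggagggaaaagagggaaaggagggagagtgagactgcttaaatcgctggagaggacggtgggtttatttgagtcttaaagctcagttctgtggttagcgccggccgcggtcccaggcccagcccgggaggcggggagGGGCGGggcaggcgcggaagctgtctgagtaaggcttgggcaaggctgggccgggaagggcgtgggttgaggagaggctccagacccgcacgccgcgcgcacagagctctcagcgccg
S100A6, chr1:153535942-153536241, minus strand: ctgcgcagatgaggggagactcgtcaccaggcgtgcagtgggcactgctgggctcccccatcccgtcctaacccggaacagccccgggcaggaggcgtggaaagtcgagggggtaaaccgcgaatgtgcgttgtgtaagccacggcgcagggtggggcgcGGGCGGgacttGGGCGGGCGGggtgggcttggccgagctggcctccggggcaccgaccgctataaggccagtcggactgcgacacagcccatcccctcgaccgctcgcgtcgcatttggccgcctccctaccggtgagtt
S100A10, chr1:151993810-151994109, minus strand: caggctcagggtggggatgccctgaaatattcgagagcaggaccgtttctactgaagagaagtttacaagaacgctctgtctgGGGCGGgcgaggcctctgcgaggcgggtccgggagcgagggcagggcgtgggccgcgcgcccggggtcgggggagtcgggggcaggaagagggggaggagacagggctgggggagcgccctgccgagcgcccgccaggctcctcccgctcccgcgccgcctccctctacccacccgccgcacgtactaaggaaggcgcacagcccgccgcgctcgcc
S100A4, chr1:153545757-153546056, minus strand: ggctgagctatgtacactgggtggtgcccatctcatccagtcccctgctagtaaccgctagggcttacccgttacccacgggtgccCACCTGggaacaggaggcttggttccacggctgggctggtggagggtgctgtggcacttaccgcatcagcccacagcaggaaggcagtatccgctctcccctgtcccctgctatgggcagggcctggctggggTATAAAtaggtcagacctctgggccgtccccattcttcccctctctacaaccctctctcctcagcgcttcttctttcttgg
The windows of S100A11 and S100A10 each held 1 GC box and that of S100A6 held 3, of which the last 2 overlap. The S100A4 window held 0 GC boxes, 1 TATA box that began 31 bases before the start and 1 CACCTG match that began 164 bases before it. GC boxes were present in 6 of the 12 windows, a share close to the 45.0% of 35116 RefSeq promoters that hold one. Each was of a different gene (S100A10, S100A11, S100A6, S100A3, S100A16 and S100A13). S100A3, which did not pass the test of change, thus had 1, while the windows of S100A2, which rose, had 0. TATA boxes were present in 2 of 12 windows (of S100A4 and S100A13; 11.5% of all promoters), CACCTG matches in 4 of 12 (of S100A4, S100A2 and S100A16; 20.6%), and the AP-1 motif TGANTCA in 2 of 12 (of S100A3 and S100A2; 7.71%). A match is a run of letters and not a tested binding site.

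Array medians lay between 18.2 and 30.6 intensity units, 0 pairs of arrays held identical values, and all 36 arrays correlated best with an array of their own line, 32 of them with one of their own line and fraction. In MDA231, MDA435 and, less strongly, DU145 some arrays stood apart in epithelial genes. CDH1, the gene of the adhesion protein E-cadherin, had 4.5, 13.7 and 1299 units in the 3 MDA231 PS arrays and 8.2, 1778 and 2.2 in the CB arrays. In MDA435 it had 2073, 922 and 33.2 in PS and 32.8, 1044 and 2463 in CB. MDA231 PS 3 and CB 2 were thus far above the other MDA231 arrays, and MDA435 PS 3 and CB 1 far below the other MDA435 arrays. The summed level of 8 epithelial markers was 13314 in MDA231 PS 3 and 12965 in CB 2, against 6398 to 8361 in the other 4 arrays of that line. In MDA435 it was 1851 in PS 3 and 1434 in CB 1, against 6540 to 12331 in the other 4. DU145 had CDH1 at 319, 1489 and 1350 units in PS and 2237, 2020 and 857 in CB, lowest in PS 1 and CB 3. EPCAM was at 567 and 1229 units in these 2 arrays, also the lowest of their fractions. Their summed epithelial level was 10914 and 10539.5, against 13149 to 15051 in the other DU145 arrays. Within each line, the arrays that stood apart had 1 PS array and 1 CB array among them. Whether these arrays came from mixed or exchanged cultures was not tested. The values of MDA231, MDA435 and DU145 are therefore those of the arrays so labelled.

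The labelled origins were set against markers of each type. SOX10 and MITF, regulators of melanocytes, averaged 1468 and 1932 units in MDA435, and TYR 410. PMEL (22.8) and MLANA (14.9) were there at or under the median of all values, 24.4. DU145 carried CDH1 and EPCAM at 1379 and 2054 units. KRT8 and KRT18 averaged 2806 and 3226 units there, and 2140 and 2113 in U251. The glial marker GFAP averaged 173 units in U251 and 6.5 in U87, and OLIG2 was under 24.4 in both. SOX2, PTPRZ1, PDGFRA and SLC1A3 averaged 1823, 834, 2223 and 327 units in U251. In U87 the same genes averaged 11.15, 9.55, 112 and 408 units. Glial markers were also present in MDA435, with OLIG2 at 312, SOX2 at 248 and PTPRZ1 at 420 units. VIM, the intermediate filament of mesenchymal cells, did not set HT1080 apart, since it was at 2673 units or more in all 36 arrays. Of the other mesenchymal markers, HT1080 had FN1 at 2702, COL6A3 at 2506, ZEB1 at 1321, CDH2 at 693 and COL1A2 at 58.0 units. PTPRC, which marks blood cells, averaged 12.4 or less in every line. Arrays measured bulk RNA, so between lines or arrays fewer cells of a type and less RNA per cell cannot be told apart. PS are protrusions and not whole cells, so between PS and CB the place of RNA within cells cannot be told apart from these either.

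PS and CB were compared over all lines by the brightest probe set of each gene. By that measure, transcripts of 6 of the 8 genes rose in pseudopods and 0 fell. S100A11 had the largest change, 1.70-fold, and S100A13, S100A2, S100A6, S100A16 and S100A10 rose by 1.24-fold to 1.37-fold. S100A4 and S100A3 did not pass the test. The test was limma on log2(intensity + 16) with Benjamini-Hochberg adjustment over 15399 genes, and a gene was called at an adjusted p under 0.05. On that scale the median change of the 8 genes was 0.36, against 0.05 over all genes tested, of which 29.5% were called higher and 20.8% lower in PS. The members were chosen with earlier results of these data known, so this contrast with all genes is a description. All 8 also reached 24.4 units, the median of all values, in all 12 groups, whereas 1 such group sufficed for a gene to be tested. Folds come from the same scale and are smaller than ratios of the intensities for dim genes. With the mean of all probe sets of a gene, 4 members were called higher and 1, S100A10, lower, against 27.5% and 22.6% of all genes. Dimmer probe sets of S100A6 and S100A10 fell, as described further on.

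**Figure D1:**
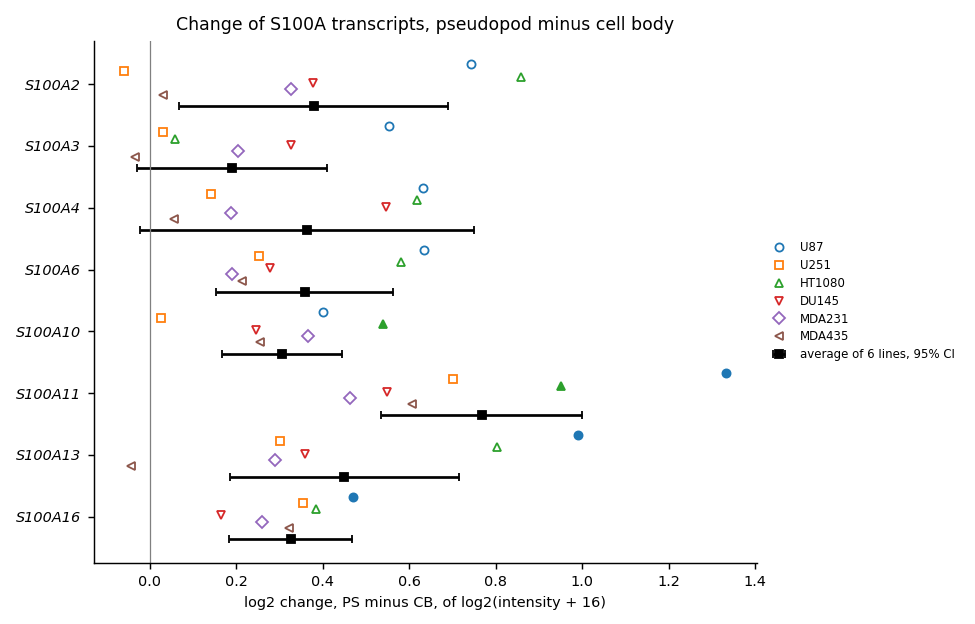
PS minus CB change of each S100A gene on the log2(intensity + 16) scale (x axis), with 1 symbol per line, filled where the line's own change was called, and a black square with its 95% confidence interval for the average of the 6 lines. The S100A11 average, 0.77, lies farthest to the right, and the intervals of S100A3 and S100A4 include 0.

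S100A11, which binds annexins and is known from membrane repair and from growth control of epithelial cells, had 334, 946 and 2176 units as lowest, median and highest of the 18 PS arrays, against 196, 495 and 1640 in the 18 CB arrays. In U87 the PS arrays had 763, 1427 and 888 units and the CB arrays 305, 443 and 414. In HT1080 the PS arrays had 873, 930 and 1026 units and the CB arrays 538, 411 and 497. Every PS array lay above every CB array in both lines. In DU145 the PS arrays had 2014, 1702 and 1924 units and the CB arrays 1261, 1283 and 1286. In MDA435 they had 531, 655 and 989 units in PS and 371, 515 and 493 in CB. The fractions did not overlap in these lines either. In U251, S100A11 had 334, 424 and 487 units in PS and 196, 221 and 342 in CB. In MDA231 it had 2176, 1647 and 962 units in PS and 1640, 1095 and 723 in CB. There the ranges overlapped, in U251 through a single CB array. The averaged change was 0.77 ± 0.11 (SE; log2 scale; adjusted p = 1.69e-06 by limma), with a positive change in 6 of 6 lines, a pattern of sign that 27.8% of all genes shared. It stayed called when each array was left out in turn, at 0.72 to 0.82.

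S100A10 and S100A6 are also partners of annexins. S100A10 forms a complex with ANXA2 that sits at the plasma membrane and binds plasminogen, and S100A6 binds CACYBP, a component of a ubiquitin ligase complex. S100A10 averaged 3032 ± 581 units in PS and 2472 ± 591 in CB (SD, n = 18 each), a change of 0.31 ± 0.07 (SE; adjusted p = 0.000404 by limma). In HT1080 the S100A10 PS arrays had 3429, 2501 and 2630 units and the CB arrays 1712, 2027 and 2098. S100A6 averaged 3365 ± 1111 units in PS and 2565 ± 711 in CB, a change of 0.36 ± 0.10 (SE; adjusted p = 0.00345 by limma). In U87 the S100A6 PS arrays had 5511, 5115 and 3597 units and the CB arrays 3037, 3248 and 2728. Both genes were higher in PS in 6 of 6 lines. S100A10 fractions did not overlap in HT1080, DU145 and MDA231, nor did those of S100A6 in U87, HT1080 and DU145. Both calls rest on the brighter of 2 probe sets, and the dimmer ones, described further on, went the other way.

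S100A16, a widely expressed member that is known from adipocyte differentiation, averaged 2637 ± 881 units in PS and 2072 ± 583 in CB (SD, n = 18 each). Its change was 0.33 ± 0.07 (SE; adjusted p = 0.000236 by limma), in the same direction in 6 of 6 lines. In U87 the PS arrays had 3841, 3891 and 2682 units and the CB arrays 2660, 2521 and 2233. In U251 they had 3432, 2679 and 2989 units in PS and 2310, 2415 and 2342 in CB. The fractions also stood apart in HT1080 and MDA435, and overlapped in DU145 and MDA231.

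S100A13, which takes part in the release of FGF1 and IL1A, which lack a signal peptide, averaged 757 ± 226 units in PS and 540.0 ± 151 in CB (SD, n = 18 each). Its change was 0.45 ± 0.13 (SE; adjusted p = 0.00450 by limma). In U87 the PS arrays had 781, 1072 and 568 units and the CB arrays 423, 337 and 401. In HT1080 they had 1037, 772 and 778 units in PS and 507, 439 and 505 in CB. Both lines had PS above CB throughout. In MDA435 the PS arrays had 268, 537 and 563 units and the CB arrays 546, 540 and 302, with a change of -0.04.

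S100A2, a mainly nuclear member known from keratinocytes, rose by 0.38 ± 0.15 (SE; adjusted p = 0.0381 by limma), with 5 of 6 lines higher. In HT1080 the PS arrays had 2068, 1973 and 1906 units and the CB arrays 878, 1140 and 1277. In U87 they had 490, 446 and 316 units in PS and 214, 297 and 213 in CB. The PS arrays stood above the CB arrays in these lines and overlapped with them in the other 4. The call was lost in 17 of 36 repeats with an array left out, where the adjusted p reached 0.0737, and with no filter on dim genes (adjusted p = 0.0504). The arrays concerned were PS 1 and 2 and CB 1 and 3 of U87, PS 1 and CB 1 and 2 of U251, PS 1 and CB 1 of HT1080, PS 1 and 2 and CB 3 of DU145, PS 1 and 2 and CB 2 of MDA231, and PS 2 and CB 1 of MDA435.

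S100A4, known as metastasin for its role in tumour cell motility and as a partner of the myosin chain MYH9, had a change of 0.36 (95% confidence interval -0.02 to 0.75; adjusted p = 0.111 by limma). The point estimate was positive in 6 of 6 lines. In DU145 the PS arrays had 159, 209 and 188 units and the CB arrays 124, 123 and 116. In HT1080 they had 90.8, 111 and 81.9 units in PS and 63.7, 60.0 and 44.5 in CB. The fractions did not overlap in either line. With the 6 line differences as units in place of the arrays, S100A4 passed (adjusted p = 0.0113 by limma). It was then among 7 of the 8 genes that passed, against 29% of all genes called higher and 19.3% lower. Only S100A3 did not pass in that setting (adjusted p = 0.0916 by limma). S100A4 also passed without MDA231 PS 3 and CB 2, at 0.39 (adjusted p = 0.0222), without MDA231 PS 3 alone (0.48, adjusted p = 0.0138) and without MDA231 CB 1 alone (0.44, adjusted p = 0.0432). Further gains came without MDA231 and MDA435 (0.48, adjusted p = 0.000471), with array weights (0.38, adjusted p = 0.0137) and with equal array medians (0.46, adjusted p = 0.0407). S100A4 thus gained a call in 2 of 36 repeats with an array left out and in 5 of 12 other settings. In the other 7 it did not pass, among them quantile normalization (adjusted p = 0.0864 by limma) and a pseudocount of 64 (0.169). Of all genes, 41.1% were called higher with equal medians and 34.8% with array weights.

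S100A3, which is best known from the hair cuticle, where PADI3 modifies it, changed by 0.19 (95% confidence interval -0.03 to 0.41; adjusted p = 0.145 by limma). In U87 the PS arrays had 211, 336 and 216 units and the CB arrays 145, 146 and 208. All PS arrays lay above the CB arrays there. In the other 5 lines the fractions overlapped. S100A3 passed without MDA231 PS 3 (0.25, adjusted p = 0.0357), with array weights (0.23, adjusted p = 0.0180), with equal array medians (0.29, adjusted p = 0.0340) and with quantile normalization (0.26, adjusted p = 0.0447). These were 1 of 36 repeats with an array left out and 3 of 13 other settings, and in the other 10 settings it did not pass.

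The changes of the 8 genes were set against each other in 28 pairs by permuting the fraction labels within lines (two-sided, 100000 resamples, adjusted over the 28 pairs). S100A11 rose more than S100A3 by 0.58 on the log2 scale (p = 1e-05, the smallest these permutations can give; adjusted p = 0.00028). It also rose more than S100A16 by 0.44 (adjusted p = 0.0126, permutation test), and the differences from S100A6 and S100A10 passed as well (adjusted p = 0.0142 and 0.0218, permutation test). In each of these pairs the S100A11 change was the larger in 6 of 6 lines. The differences between S100A11 and S100A13, S100A2 and S100A4 did not pass (adjusted p = 0.0547, 0.0608 and 0.093, permutation test). Among the 21 pairs without S100A11, 0 passed. The number of pairs called ran from 3 to 7 when arrays were left out, with 3 without MDA231 PS 1, MDA435 PS 3 or MDA231 CB 3, and 7 without MDA231 CB 2.

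Within single lines, 5 of the 48 combinations of gene and line were called higher in PS and 0 lower, where 5.82% and 8.17% of all such combinations were called. In U87, S100A11 rose by 1.33 ± 0.28 (SE; log2 scale; adjusted p = 0.000691 by limma), S100A13 by 0.99 ± 0.32 (adjusted p = 0.0219) and S100A16 by 0.47 ± 0.17 (adjusted p = 0.0432). In HT1080, S100A11 rose by 0.95 ± 0.28 (SE; adjusted p = 0.0115 by limma) and S100A10 by 0.54 ± 0.17 (adjusted p = 0.0166). In U87, 11.7% of all genes were called higher and 11.8% lower, and in HT1080, 12.8% and 12%. U251, DU145, MDA231 and MDA435 had 0 of 8 called by limma, with 5.36%, 0.825%, 1.18% and 2.96% of all genes called higher there and 9.33%, 2.16%, 4.9% and 8.81% lower. These calls were less steady than the averaged ones. S100A13 in U87 was lost without U87 PS 1, PS 2 or CB 2 (adjusted p up to 0.154), S100A16 in U87 without any array of U87 other than PS 3 (up to 0.204), S100A10 in HT1080 without HT1080 PS 1 or CB 1 (up to 0.125) and S100A11 in HT1080 without HT1080 CB 2 (0.0623). With the mean of all probe sets, S100A10 in HT1080 changed by 0.034 (adjusted p = 0.890) and S100A13 in U87 by 0.47 (adjusted p = 0.0631), and with quantile normalization S100A16 in U87 changed by 0.29 (adjusted p = 0.173). Leaving out arrays moved the count to 3 without U87 PS 1, U87 PS 2 or U87 CB 2, and to 8 without MDA231 PS 3 or MDA435 PS 1.

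All PS arrays lay above all CB arrays in 21 of the 48 combinations and below them in 0, where the share of all genes below ran from 11.9% to 18.4% over the lines. HT1080 had 7 of 8 genes so ordered and U87 6 of 8, against 29.5% and 17% of all genes in these lines. DU145 had 4 (16.7% of all genes), MDA435 2 (12.3%), U251 1 (22%) and MDA231 1 (9.11%). The median change of the 8 genes was 0.63 in U87, 0.60 in HT1080, 0.34 in DU145, 0.28 in MDA231, 0.20 in U251 and 0.14 in MDA435, while that of all genes lay between 0.01 and 0.09. A difference between lines in the change itself was called for 0 of the 8 genes by the moderated F test of limma, with 0 at an unadjusted p under 0.05, against 1.18% of all genes called. The order of the lines is therefore a description.

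S100A6, S100A10 and S100A13 each carry another, dimmer probe set besides the one used so far. Fitted over all 35240 probe sets that passed the filter, 6 of the 11 probe sets rose and 2 fell, against 25.4% and 24.5% of all probe sets. S100A6 probe set 228923_at averaged 22.6 units in PS and 50.1 in CB, a fall of 0.76 on the log2 scale (adjusted p = 6.81e-07 by limma), and it was lower in PS in 6 of 6 lines. In U251 its PS arrays had 19.2, 33.9 and 26.6 units and its CB arrays 71.3, 66.5 and 82.8. In DU145 it had 38.7, 32.6 and 28.7 units in PS and 65.3, 53.6 and 79.9 in CB. The fractions stood apart in these lines and in U87, and overlapped in the other 3.

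S100A10 probe set 238909_at averaged 44.4 units in PS and 75.2 in CB and fell by 0.65 (adjusted p = 1.45e-09 by limma). In DU145 its PS arrays had 27.8, 26.3 and 37.0 units and its CB arrays 75.7, 81.3 and 99.7. In MDA231 they had 42.6, 50.7 and 42.2 units in PS and 95.7, 88.1 and 103 in CB. U87 alone had overlapping fractions, with 101, 92.1 and 84.7 units in PS and 87.2, 106 and 64.9 in CB, and a change of 0.11. The change of this probe set differed between lines (moderated F test of limma, adjusted p = 0.0222 over all probe sets). The dimmer S100A13 probe set, 213481_at, averaged 53.0 units in PS and 47.3 in CB, and its change of 0.11 did not pass (adjusted p = 0.237 by limma).

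Set against each other within arrays, the brighter S100A6 probe set changed by 1.11 more than the dimmer one and that of S100A10 by 0.96 more, in 6 of 6 lines each (permutation test within lines, p = 1e-05 for both, the smallest possible; adjusted p = 1.5e-05 over 3 pairs). For S100A13 the difference was 0.34 in 4 of 6 lines (permutation test, adjusted p = 0.0489). These 3 tests were chosen after the values were seen. Both falls stayed called when each array was left out, at -0.81 to -0.71 for S100A6 and -0.68 to -0.63 for S100A10. When the probe sets of a gene were averaged, the S100A6 change became -0.20 (adjusted p = 0.0638) and that of S100A10 -0.17 (adjusted p = 0.00278). Which transcripts the dimmer probe sets detect was not tested.

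**Figure D2:**
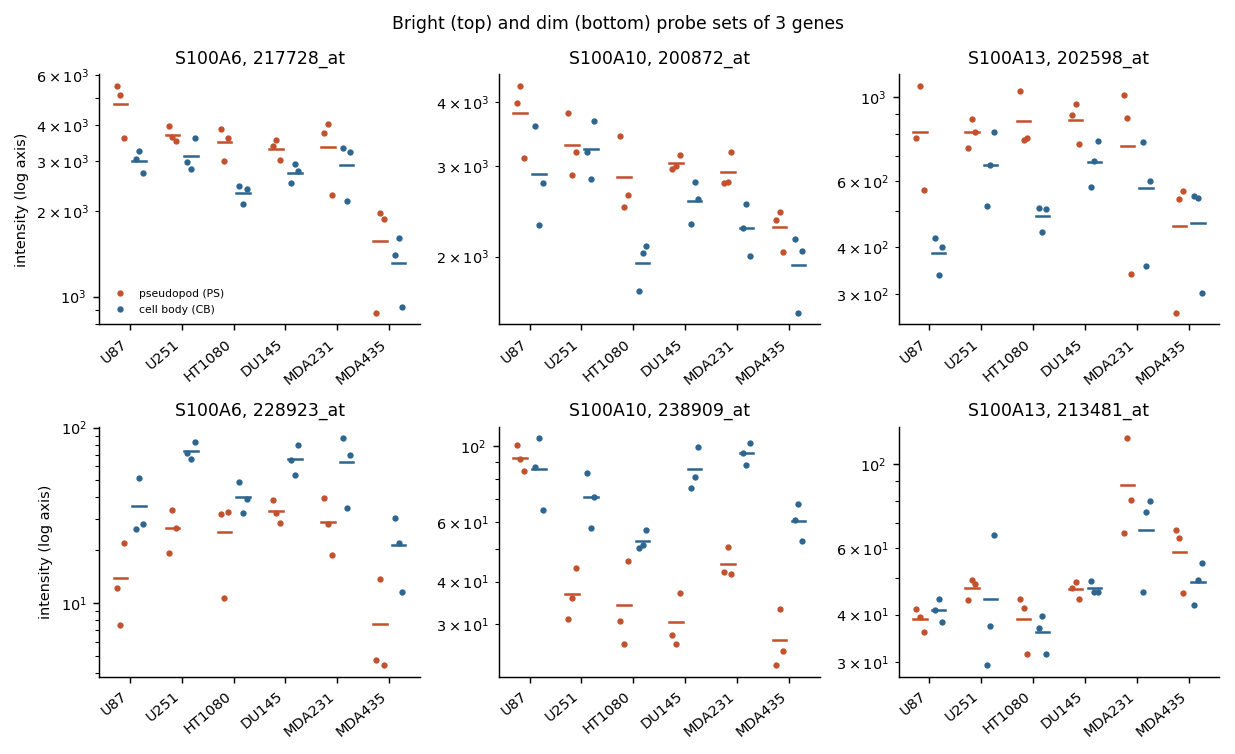
Intensity (log axis) of the brighter (top) and dimmer (bottom) probe set of S100A6, S100A10 and S100A13 in every array, by line, with PS in red left of CB in blue and bars at the group means. The dimmer S100A6 and S100A10 probe sets run lower in PS in all lines but U87 for S100A10, while the brighter ones run higher.

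The lines differed in the level of all 8 genes (moderated F test of limma, 88.8% of all genes called), where a line's level is the mean of its 6 PS and CB arrays. S100A2 spanned the widest range. It averaged 5775 ± 1030 units in U251, 1540 ± 503 in HT1080, 688 ± 416 in MDA231, 329 ± 116 in U87, 312 ± 60.7 in DU145 and 49.5 ± 9.64 in MDA435 (SD, n = 6 each). Every step in that order passed except that between U87 and DU145 (adjusted p = 0.938 by limma), and 14 of 15 pairs of lines differed, against 52.6% of all pairs over all genes.

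S100A4 was highest in MDA231, at 1208 ± 764 units, then 272 ± 61.8 in U251, 153 ± 38.8 in DU145, 152 ± 55.2 in U87, 91.5 ± 45.5 in MDA435 and 75.3 ± 23.9 in HT1080 (SD, n = 6 each). MDA231 differed from U251 (adjusted p = 2.04e-05 by limma) and U251 from DU145 (adjusted p = 0.0492), while the differences between the lower neighbours did not pass. S100A11 averaged 1578 ± 346 units in DU145, 1374 ± 541 in MDA231, 712 ± 260 in HT1080, 707 ± 418 in U87, 592 ± 215 in MDA435 and 334 ± 113 in U251. MDA231 differed from HT1080 (adjusted p = 0.000263 by limma) and MDA435 from U251 (adjusted p = 0.00103), and the other neighbours did not. S100A3 averaged 210 ± 69.6 units in U87, 119 ± 48.1 in MDA231, 92.8 ± 20.5 in DU145, 70.0 ± 11.1 in MDA435, 60.6 ± 9.03 in U251 and 42.4 ± 13.8 in HT1080, and only U87 and MDA231 differed among neighbours (adjusted p = 0.000732 by limma).

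S100A6 and S100A16 set MDA435 apart. S100A6 averaged 3873 ± 1158 units in U87, 3420 ± 443 in U251, 3127 ± 766 in MDA231, 3021 ± 391 in DU145, 2907 ± 711 in HT1080 and 1440 ± 466 in MDA435, where the last step was the only one between neighbours that passed (adjusted p = 8.85e-06 by limma). S100A16 averaged 2971 ± 711 units in U87, 2853 ± 551 in HT1080, 2695 ± 443 in U251, 2347 ± 255 in DU145, 2235 ± 484 in MDA231 and 1023 ± 160 in MDA435, again with the last step alone passing (adjusted p = 8.06e-09 by limma). S100A10 ran from 3347 ± 754 units in U87 to 2101 ± 314 in MDA435 and S100A13 from 771 ± 140 in DU145 to 459 ± 136 in MDA435. For these genes no neighbours in the order differed, and 8 and 3 of the 15 pairs of lines passed. The S100A13 call between lines was lost without MDA435 PS 1 (adjusted p = 0.0951) or MDA435 CB 3 (adjusted p = 0.0931), and with equal array medians (adjusted p = 0.0500379).

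**Figure D3:**
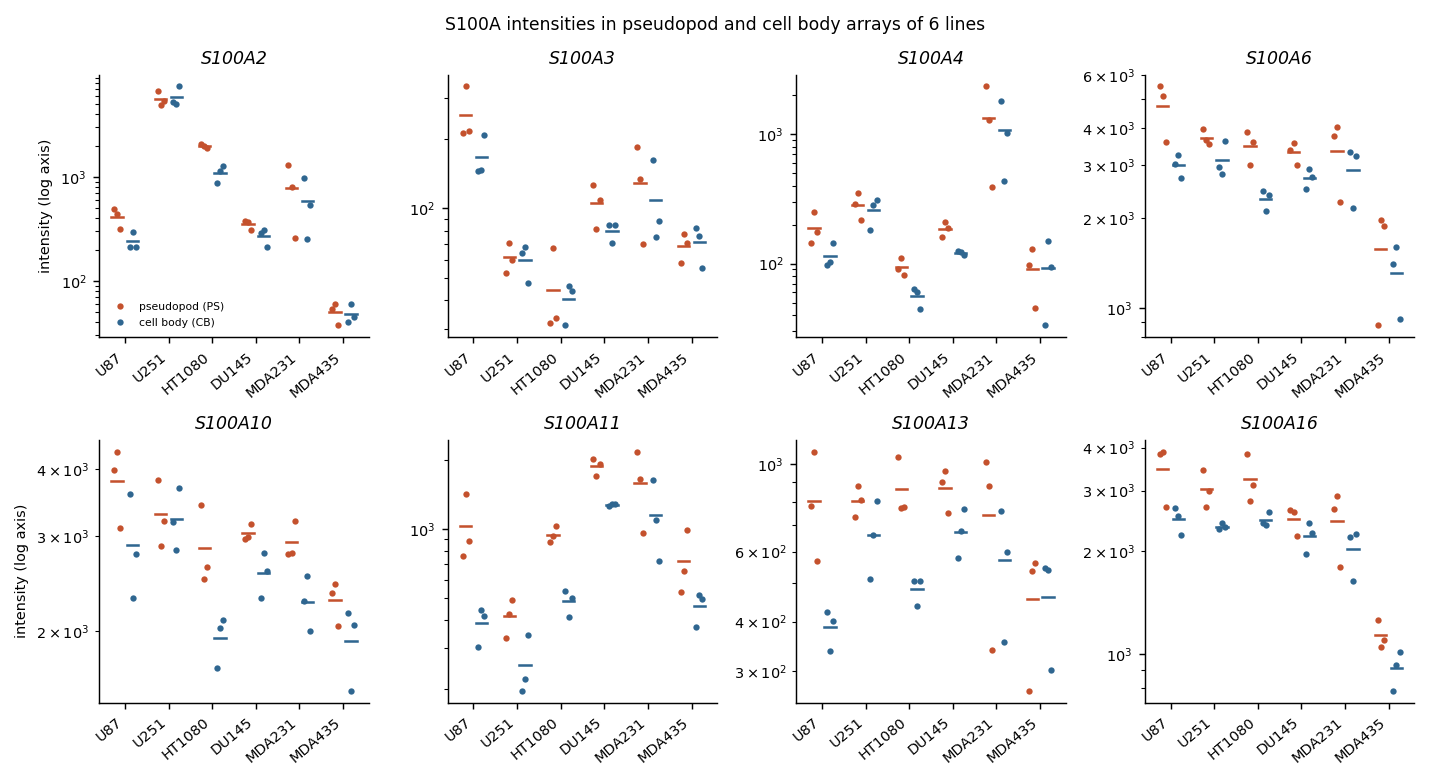
Intensity of each S100A gene (log axis) in all 36 arrays, by line, with PS in red left of CB in blue and bars at the group means of 3 arrays. S100A2 spans the widest range, with U251 at the top and MDA435 at the bottom, and MDA435 is lowest for S100A6 and S100A16.

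The wide S100A4 spread in MDA231 followed the arrays that stood apart. S100A4 had 2330, 1279 and 393 units in the MDA231 PS arrays and 1799, 433 and 1014 in the CB arrays. PS 3 and CB 2, the arrays with high CDH1, were the lowest of their fraction. S100A2 had 1299, 797 and 259 units in PS and 980, 253 and 541 in CB, again lowest in these arrays. S100A6 had 3753, 4039 and 2267 units in PS and 3319, 2166 and 3217 in CB, and S100A13 had 1010, 880 and 339 in PS and 762, 356 and 600.4 in CB. S100A3 and S100A16 were lowest in PS 3 and CB 2 as well. S100A11, given above, was lowest in PS 3 but in CB 3 among the CB arrays. S100A10 had 2784, 2789 and 3200 units in PS and 2278, 2531 and 2001 in CB, so that PS 3 and CB 2 were its highest arrays in each fraction. ZEB1, a repressor of CDH1, had 1842, 1665 and 785 units in PS and 1360, 709 and 1396 in CB. In MDA435, S100A4 had 98.0, 129 and 45.3 units in PS and 33.3, 150 and 93.5 in CB, and here the low arrays were PS 3 and CB 1, those with the least CDH1. S100A2 was lowest in these arrays too. S100A6 (875 and 920 units), S100A13 (268 and 302) and S100A3 were instead lowest in PS 1 and CB 3, the MDA435 arrays with the most CDH1. S100A10, S100A11 and S100A16 followed neither pair in both fractions. The part of these arrays' epithelial genes in the S100 values was not tested. Without MDA231 PS 3 and CB 2, 7 of the 8 genes rose over all lines, against 30.6% of all genes called higher and 21.5% lower in that fit. Without MDA435 PS 3 and CB 1, 6 of 8 rose, against 29.2% and 20.8%.

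**Figure D4:**
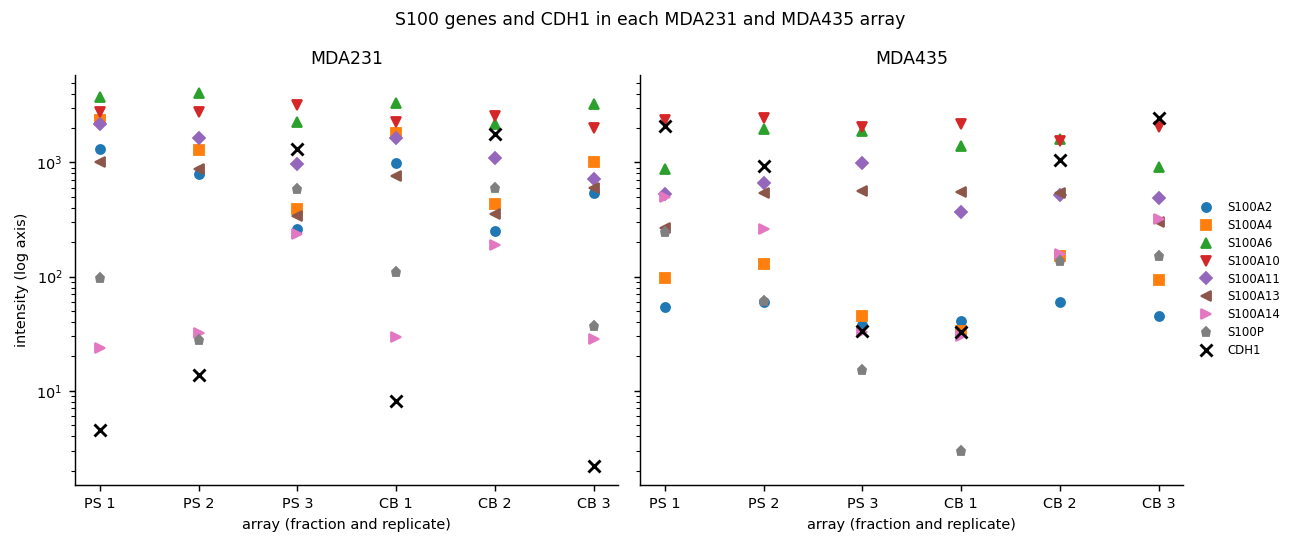
Intensity (log axis) of 6 S100A genes, S100A14, S100P and CDH1 in each MDA231 array (left) and MDA435 array (right). In MDA231, CDH1 is high in PS 3 and CB 2, where S100A4 and S100A2 are low and S100A14 and S100P high, and in MDA435, CDH1 is low in PS 3 and CB 1.

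Of 12 other S100 genes, 8 reached the filter of 24.4 units in some group. S100A14 did so in 11 of the 12 groups, S100P in 5, S100B and S100Z in 4, S100A1, S100A8 and S100A9 in 2 and S100A5 in 1, whereas the 8 S100A genes above did so in all 12. An average over lines of which most lie near background says little about these genes, and the line that brought a gene over the filter had to differ from the rest, so their levels are given as a description. S100A7, S100A7A, S100A12 and S100G stayed below the filter in every group. S100B, a glial and melanocytic member, had 1723, 3325 and 2980 units in MDA435 PS and 2607, 2108 and 1668 in MDA435 CB, and 57.0 or less in every other array. S100A1, known from heart muscle, averaged 78.9 units in MDA435 PS and 62.9 in MDA435 CB. S100A8 and S100A9, which pair up as calprotectin, were led by DU145, with S100A9 at 70.9, 259 and 189 units in PS and 122, 107 and 72.1 in CB. S100A8 had 31.4, 168 and 147 units in DU145 PS and 194, 181 and 29.8 in DU145 CB. Both genes were lowest of each fraction in PS 1 and CB 3, the DU145 arrays with the least CDH1.

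S100A14, an epithelial member, had 23.9, 32.3 and 236 units in MDA231 PS and 29.3, 190 and 28.5 in MDA231 CB, high in the arrays with high CDH1. S100P, which is known from placenta and carcinomas, had 97.7, 27.9 and 583 units in MDA231 PS and 109, 595 and 36.7 in MDA231 CB. In MDA435, S100A14 had 499, 262 and 32.9 units in PS and 30.1, 158 and 321 in CB, low where CDH1 was low. S100A5 reached 65.4, 58.1 and 2.6 units in MDA231 PS and 38.0, 1.4 and 18.8 in MDA231 CB, thus lowest in the arrays with high CDH1. S100Z, the remaining tested gene, averaged 79.9 units in U251 PS and 66.1 in U251 CB.

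Partners of S100 proteins were described from a list of 24 genes, of which 21 were tested. Of these, 4 rose, 5 fell and 12 did not pass, with a median change of 0.07, against 29.5% of all genes called higher and 20.8% lower. AHNAK, the very large scaffold that the S100A10 and ANXA2 complex binds at the membrane, fell by 1.52 ± 0.13 on the log2 scale (SE; adjusted p = 9.66e-11 by limma). It averaged 482 ± 254 units in PS and 1341 ± 492 in CB (SD, n = 18 each), and PS was lower in 6 of 6 lines. PLAT, the plasminogen activator that the same complex can bind, fell by 1.34 ± 0.21 (adjusted p = 3.9e-06 by limma) and CTSB, a lysosomal protease, by 0.91 ± 0.10 (adjusted p = 9.19e-09), each in 6 of 6 lines. SYT1, which joins S100A13 in FGF1 release, fell by 0.56 (adjusted p = 5.08e-06 by limma) and HLTF by 0.25 (adjusted p = 0.0276).

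ANXA11, an annexin partner of S100A6, rose by 0.56 ± 0.09 (SE; adjusted p = 4.89e-06 by limma), with 1567 ± 523 units in PS and 1087 ± 408 in CB. SUGT1, a co-chaperone that S100A6 binds, rose by 0.38 (adjusted p = 6.8e-06 by limma) and CACYBP by 0.27 (adjusted p = 0.00235), each in 6 of 6 lines. ANXA2, the partner of S100A10, had a change of 0.10 (95% confidence interval -0.06 to 0.25; adjusted p = 0.305 by limma), and ANXA1, which S100A11 binds, of 0.12 (interval -0.01 to 0.25; adjusted p = 0.125). FGF1 and MYH9 did not pass either, with changes of 0.17 and 0.06.

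**Figure D5:**
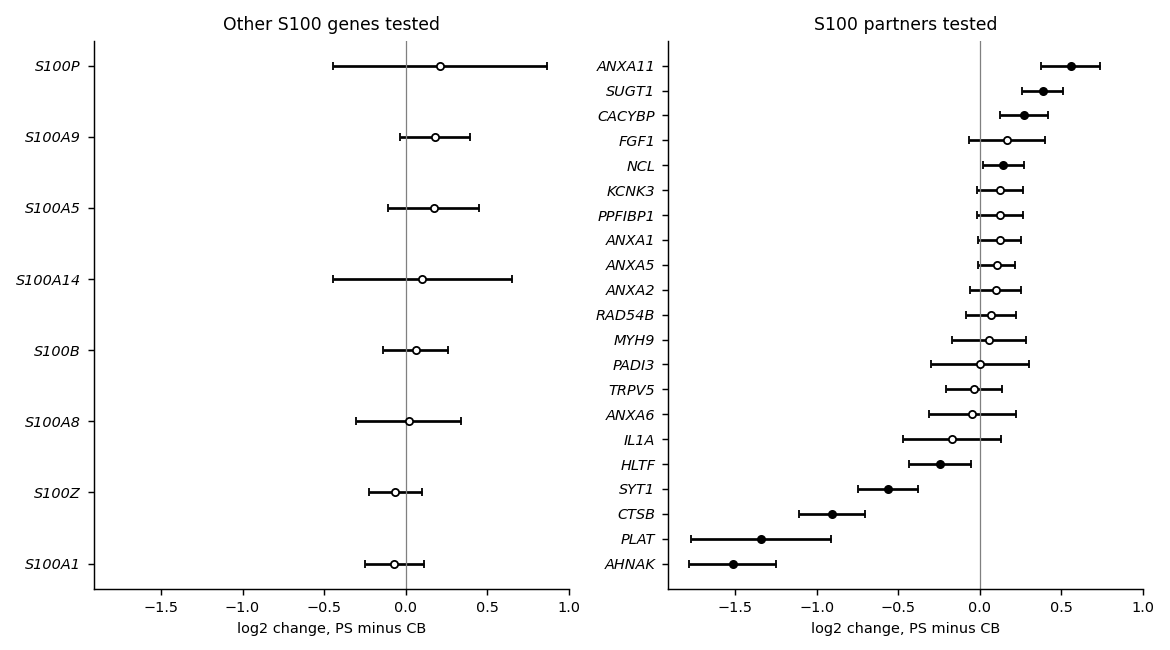
PS minus CB change on the log2(intensity + 16) scale, with 95% confidence intervals, of the 8 other S100 genes tested (left) and of the 21 partner genes tested (right). Filled symbols mark called genes. Most of the other S100 genes lay near background in most lines, and among the partners AHNAK and PLAT lie lowest and ANXA11 highest.

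Markers of cell types also moved between the fractions, where 29.5% of all genes were called higher and 20.8% lower. These are averages over lines, and for CDH2, PTPRZ1 and TYR the change differed between lines (moderated F test of limma, adjusted p = 0.000413, 5.04e-05 and 0.00859), with 4, 5 and 3 of 6 lines lower. Of 6 mesenchymal markers, 4 were lower in PS (FN1, CDH2, COL1A2 and COL6A3) and ZEB1 was higher, and their summed level ran from 3602 to 16584 units in PS and from 3110 to 24880 in CB. Of 6 glial markers, 3 were lower (SLC1A3, PTPRZ1 and PDGFRA), with sums of 80.3 to 4349 units in PS and 108 to 7211 in CB. Of 8 epithelial markers 1 was higher (KRT18) and 1 lower (CLDN4), with sums of 132 to 15036 units in PS and 129 to 15051 in CB. Of 4 melanocytic markers tested 2 were lower (PMEL and TYR), with sums over 5 genes of 194 to 4617 units in PS and 193 to 5358 in CB. Of 2 blood cell markers tested 1 was lower on average (CD14, at 9.7 units in PS and 16.6 in CB, lower in 3 lines and higher in 3), with sums over 3 genes of 10.5 to 65.7 units in PS and 9.5 to 171 in CB, both highest in MDA231. Their part in the S100 changes was not tested.

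The group means of S100A6 ran most closely with those of S100A16 among the members (Pearson's r = 0.95 over the 12 groups) and next with those of S100A10 (0.84). Genomic neighbours differed in this. The adjacent S100A10 and S100A11 had r = 0.11, and the adjacent S100A3 and S100A2 -0.33, while S100A2 and S100A16 had 0.71. Among tested genes that are no S100 gene, the pattern most like that of S100A2 was LYPD6 (r = 0.97) and that most like S100A16 was RAB31 (0.97). For S100A6 it was ZMAT2 (0.96), for S100A10 ACYP1 (0.97), for S100A11 MAF1 (0.95), for S100A13 UIMC1 (0.96), for S100A3 CRACR2B (0.96) and for S100A4 DCP2 (0.96). These values describe 12 group means that share lines and arrays. Each r of a most similar gene is also the highest among all genes searched, so it is high by selection.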

How the data were processed

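Arrays covered 12 groups of 3, grouped by line and fraction from the labels. The deposited values are linear intensity values, 1 per probe set and array, and the mean of each array lay between 149.18 and 149.59 with 2% left out at each end, so arrays share a scale. RMA and Partek are named in the submitters' processing notes, and which program produced these linear intensities is not stated. The design assumed log2 or linear values, and log2(intensity + 16) was computed. Probe sets were named from the platform annotation (41074 with 1 symbol, 1798 with several, 11721 with none), brought to current symbols through RefSeq gene numbers.

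Per gene the probe set with the highest mean was used, and 15399 genes with a group mean of 24.4 or more, the median of all values, were tested with limma 3.58.1 in R 4.3.3 on 12 group means (24 residual degrees of freedom). Pairs of members were compared by permutation in Python 3.11.15. The fit was tested on simulated data. All 8 members are named, the other tested S100 genes, and up to 8 called partners with the largest change; further partners and markers were named after their values were seen. Members and lists were chosen with earlier results of these data known. Replicate numbers did not pair the arrays (18 pairs, r from -0.78 to 0.69, with the own number best in 3). With other numbers r reached 0.82 in MDA231 and 0.80 in MDA435. Whether PS and CB arrays belong together under other numbers was not tested, and the tests treat the arrays as independent. Promoters came from RefSeq for GRCh38.p14.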

Additional observations from a re-analysis of the deposited data

Results flagged for a closer look

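S100A3 had 336.0 units in U87 PS 2, and the next of the 6 U87 arrays lay so far below it that the gap passed Dixon's limit. Of 56 sets of 6 values checked this way it was the only one past the limit, and chance flags about 1 in 20. The change of the S100A10 probe set 238909_at differed between lines (moderated F test of limma, adjusted p = 0.0222), with U87 at 0.11 and the other 5 lines between -1.13 and -0.47.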

How the results depend on the processing

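Over 75 values with a test and 3835 recomputations, 3676 kept their direction and their side of the threshold, 38 lost a call, 56 gained one, 53 changed sign and 12 counts moved by more than 1.5 times. Many of these outcomes could hardly differ. A change within a line stays the same when an array of another line is left out, and only its adjusted p can move. F statistics have no direction. The totals are therefore no measure of how steady the results are. The averaged rises of S100A11, S100A13 and S100A16 kept direction and call under all alternatives run, as did those of S100A6 and S100A10 except with the mean of all probe sets. The count of members called ran from 5 to 8 with an array left out, that of probe sets from 7 to 10, that of members differing in level from 7 to 8, and that of members whose change differed between lines stayed at 0. Within lines, 5 combinations of gene and line became 17 with array weights (15.14% of all combinations called higher), 13 without MDA231 and MDA435 (11.06%), 11 without MDA231 PS 3 and CB 2 (7.09%), and 3 to 8 with an array left out. Pairs of members called moved to 8 with a pseudocount of 64, 17 with the mean of all probe sets, 8 without MDA231 and MDA435, and 3 to 7 with an array left out. With equal array medians the median of all genes was 0.14 in place of 0.05 and 71.5% of all called genes were higher in PS, in place of 58.7%. The members' median was then 0.46 and all 8 were called higher, against 41.1% of all genes.

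Signs changed as follows; the cause was not tested. With the mean of all probe sets, S100A6 changed by -0.20 on average, -0.074 in U87, -0.41 in U251, -0.23 in DU145, -0.31 in MDA231 and -0.22 in MDA435, S100A10 by -0.17 on average, -0.34 in U251, -0.44 in DU145, -0.25 in MDA231 and -0.29 in MDA435, and S100A13 in MDA435 by 0.078. In MDA435, S100A3 had 0.052 with equal medians, 0.057 with quantile normalization, 0.018 with array weights and 0.040 without PS 3 and CB 1, S100A13 had 0.044 with equal medians and 0.0067 with array weights, and S100A4 had -0.14 with array weights and -0.071 without PS 3 and CB 1. S100A3 in HT1080 had -0.0055 with array weights, and S100A6 in MDA231 -0.0011 with quantile normalization. With an array left out, U251 ran from -0.083 to 0.12 for S100A10, -0.19 to 0.12 for S100A2, -0.091 to 0.11 for S100A3 and -0.075 to 0.31 for S100A4, and HT1080 from -0.20 to 0.20 for S100A3. MDA231 ran from -0.17 to 0.96 for S100A2, -0.070 to 0.54 for S100A3, -0.37 to 0.89 for S100A4, -0.0069 to 0.45 for S100A6 and -0.0087 to 0.77 for S100A13. MDA435 ran from -0.072 to 0.18 for S100A2, -0.17 to 0.063 for S100A3, -0.43 to 0.45 for S100A4, -0.018 to 0.59 for S100A6 and -0.31 to 0.29 for S100A13. None of these line values was called in the main setting. With the mean of all probe sets, however, S100A10 was called lower in PS in U251 and DU145 (adjusted p = 0.0404 and 0.0224 by limma). The calls within lines were then 3 higher and 2 lower, against 6.08% and 9.0% of all combinations.

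With line and replicate number as a block, a pairing that the data do not bear out (4 of 18 pairs over 0.1), 6 members were called higher (26.5% of all genes higher, 19.3% lower) and 4 combinations of gene and line (3.62% higher, 6.54% lower). S100A13 and S100A16 in U87 and S100A10 in HT1080 were lost (adjusted p = 0.0516, 0.102 and 0.056 by limma), and S100A11 in U251 and MDA435 gained (0.00838 and 0.0212). The number of arrays limits precision, and dim probe sets lie near the median of all values. Leave-outs that reduce a group to 2 arrays use the spread of all groups. The alternatives without MDA435 PS 3 and CB 1, and the leave-outs of the probe set fit, were chosen after seeing the data.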
